A study of Mus musculus with 60 samples.

Results

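The subject is the machinery that carries proteins into mitochondria, read as mRNA in the mouse brain. Its members were chosen by name: genes whose symbol starts with Timm or Tomm and a digit, together with Samm50, Mtx1, Mtx2, Mtx3, Pam16, Grpel1, Grpel2, Pmpca and Pmpcb. The rule found 33 of the 21999 genes in the deposited tables. The libraries came from 20 mice, each sampled in the prefrontal cortex, the striatum and the hippocampus, which gives 60 libraries. Glo1 knockout (KO) mice and wild-type (WT) mice were fed 1 of 2 diets between 8 and 12 weeks of age. Glo1 encodes glyoxalase 1, an enzyme that clears the reactive by-product methylglyoxal. Pellets of the normal diet held 1.4 mg of vitamin B6 (VB6) per 100 g, and those of the lacking diet held 5 µg per 100 g. Each of the 4 combinations of genotype and diet had 5 mice. The VB6 level given with each mouse was 58.2 to 78.1 ng per µl on the normal diet and 2.25 to 5.63 ng per µl on the lacking diet. Strain, sex and the way the Glo1 allele was made are not given in the sources used here. All KO libraries carry batch label 1 and all WT libraries batch label 2, so genotype and batch cannot be told apart in any comparison of KO with WT below.

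Nearly all mitochondrial proteins are made in the cytosol and imported. They enter through the TOM complex of the outer membrane, whose receptors Tomm20, Tomm22 and Tomm70 (listed here under the older symbol Tomm70a) recognise precursors and whose pore is Tomm40. From there the SAM complex builds barrel proteins into the outer membrane, the small TIM chaperones and TIM22 place carrier proteins in the inner membrane, and TIM23 with its heat-shock motor draws precursors into the matrix, where the Pmpca and Pmpcb peptidase removes the targeting sequence. Neurons depend on this route to supply their long processes with working mitochondria.

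To show the upstream regions of the members that separated the brain regions most clearly, the 250 bases before the RefSeq start (GRCm38.p6) are given 5′ to 3′ on the gene's own strand. These 4 members were chosen after their values had been seen. Capitals mark each match to CCGGAAG, the core bound by ETS factors such as nuclear respiratory factor 2, or to its reverse complement CTTCCGG. Tomm70a lies on the plus strand at chr16:57121464-57121713, Tomm20 on the minus strand at chr8:126945922-126946171, Mtx3 on the plus strand at chr13:92844518-92844767 and Tomm34 on the minus strand at chr2:164071170-164071419.
Tomm70a: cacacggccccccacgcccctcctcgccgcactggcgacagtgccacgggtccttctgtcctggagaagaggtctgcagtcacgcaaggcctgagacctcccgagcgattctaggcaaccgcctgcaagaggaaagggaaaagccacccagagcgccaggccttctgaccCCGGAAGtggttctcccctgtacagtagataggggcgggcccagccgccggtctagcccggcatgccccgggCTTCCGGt
Tomm20: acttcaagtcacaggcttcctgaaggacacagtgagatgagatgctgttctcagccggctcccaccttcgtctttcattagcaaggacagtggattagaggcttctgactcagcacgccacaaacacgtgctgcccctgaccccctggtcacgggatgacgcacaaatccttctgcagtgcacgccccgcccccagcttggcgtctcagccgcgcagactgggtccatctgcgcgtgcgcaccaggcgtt
Mtx3: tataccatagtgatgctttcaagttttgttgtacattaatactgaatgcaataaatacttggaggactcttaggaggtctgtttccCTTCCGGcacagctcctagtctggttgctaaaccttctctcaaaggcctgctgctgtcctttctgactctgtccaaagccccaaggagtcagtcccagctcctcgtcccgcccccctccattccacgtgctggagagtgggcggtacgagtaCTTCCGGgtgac
Tomm34: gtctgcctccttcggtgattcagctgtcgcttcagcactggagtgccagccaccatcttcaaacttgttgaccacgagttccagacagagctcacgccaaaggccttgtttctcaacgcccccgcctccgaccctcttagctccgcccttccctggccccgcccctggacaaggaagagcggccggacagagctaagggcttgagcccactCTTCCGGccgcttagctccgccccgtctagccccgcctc
Tomm70a has a match starting 80 bases and another 8 bases before the start, Mtx3 has them at 164 and 12 bases, and Tomm34 has 1 match at 39 bases. The window of Tomm20 holds none. RefSeq promoters of full length were found for 29 of the 33 members, and 13 of these windows (44.8%) hold the ETS core on either strand: Grpel1, Mtx1, Mtx2, Mtx3, Pmpca, Pmpcb, Timm10, Timm23, Timm8a2, Timm8b, Tomm22, Tomm34 and Tomm70a. The share was 7.05% of all 27025 promoters in the table and 12.8% of the 10677 promoters whose genes were tested here. An exact form of the core of nuclear respiratory factor 1, GCATGCGC or GCGCATGC, was in 2 members' windows (6.9%), those of Grpel1 and Timm13. It was in 2.32% of all promoters and 4.34% of those of tested genes. Other forms of that core were not searched, so windows without this form, such as that of Tomm20, may hold another. The median GC content was 56.4% over the members' windows and 60% over those of tested genes. A match is a run of letters and not a measured binding site.

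Of the 33 members, 30 had enough counts to be tested in each region and over all libraries. Timm8a1 was near the floor, with 0 to 8 counts a library and 0 in 8 libraries. Timm8a2 had 9 counts in all and 0 in 52 libraries, and Tomm20l had 1 count in all. Levels of different genes are compared in RPKM (reads scaled by gene length and library total), and levels of 1 gene across libraries in CPM (counts scaled to a common library total with TMM factors over all 60 libraries).

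The outer-membrane receptors Tomm70a and Tomm20 had the highest RPKM among the members. Tomm70a, a receptor for carrier proteins and a docking site for chaperones, had a median of 98.4 RPKM over the 60 libraries (81.5 to 294), and Tomm20, the receptor for cleavable targeting sequences, had 63.8 RPKM (52.6 to 90.8). Timm8b, a small chaperone of the intermembrane space, followed with 56.7 RPKM (42.8 to 75.0), then the receptor Tomm22 with 35.0 RPKM (28.7 to 41.9). The pore gene Tomm40 was far lower, at 3.29 RPKM (1.95 to 4.47), and its paralog Tomm40l stood higher at 6.19 RPKM (4.04 to 7.95), although 52.0% of the 75-base stretches of Tomm40l also occur in the overlapping gene Nr1i3. The lowest of the tested members were Tomm5 and Tomm6, small subunits that stabilise the pore, at 1.22 RPKM (0.25 to 2.73) and 1.32 RPKM (0.711 to 2.77). In Tomm6, 84.2% of exonic bases overlap other annotated genes.

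Paralog pairs were unequal. Timm17a, 1 of the alternative channel partners in TIM23, stood at 15.1 RPKM (13.0 to 17.7) against 2.42 RPKM (1.19 to 3.61) for Timm17b, and their ranges over 60 libraries did not overlap. Mtx3 stood at 17.1 RPKM (10.96 to 25.03), above the metaxins Mtx2 at 9.79 RPKM (8.11 to 12.5) and Mtx1 at 3.08 RPKM (1.87 to 4.54), with a range that overlapped that of Mtx2. The subunits of the processing peptidase, which work as a dimer, differed as well, with 19.9 RPKM (15.1 to 22.5) for Pmpca and 8.12 RPKM (6.50 to 10.7) for Pmpcb. The exchange factors of the motor were closer, with 5.40 RPKM (3.54 to 7.04) for Grpel1 and 4.24 RPKM (3.01 to 5.96) for Grpel2, and their ranges overlapped. Timm8b stood at 56.7 RPKM where Timm8a1 had a median of 0.15 RPKM (0 to 0.572), and Tomm20 at 63.8 RPKM where Tomm20l had a median of 0. These levels rest on the gene lengths behind the deposited RPKM, which equal the exonic length in GENCODE vM21 for 21 members, are shorter for 10 and longer for 2. For Tomm70a the length used was 3778 bases where GENCODE has 9777 exonic bases, so its rank among the members depends on that choice. Besides Tomm40l, further members shared over 10% of their 75-base stretches with other annotated genes, so that their reads could be split or lost in counting. These were Tomm6 (67.1%), Timm23 (52.1%), Timm8a1 (39.9%), Pam16 (34.2%), Pmpca (18.1%), Mtx1 (17.4%) and Timm10b (15.3%).

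**Figure D1:**
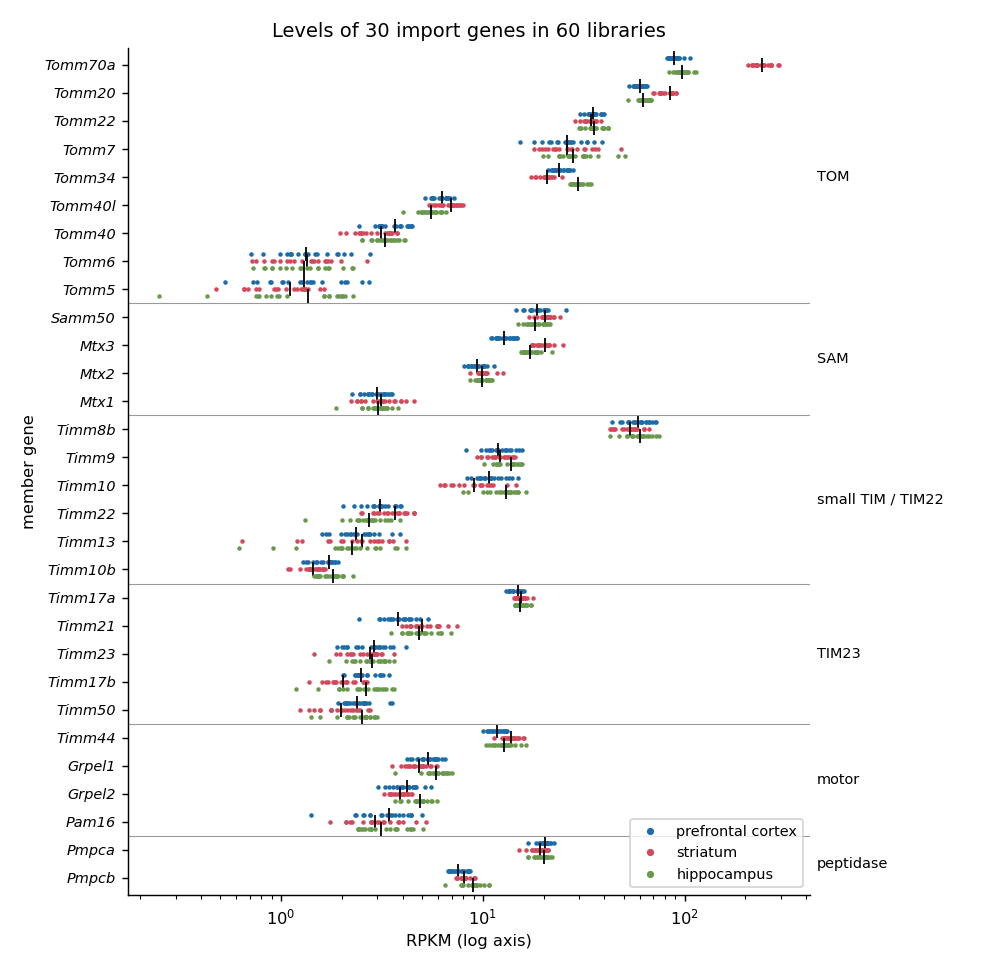
RPKM of the 30 tested import genes on a log axis, 1 point per library and a black tick at each region's median (20 libraries per region), grouped by complex. Tomm70a in striatum stands apart from the other regions, while most members have overlapping points in all regions.

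The libraries matched their labels. Glo1 had 0 to 10 counts in the 30 KO libraries and 299 to 734 in the 30 WT libraries. Each region was highest in its own marker list, and the summed striatal markers were 6485 to 8382 CPM in striatum against at most 185 CPM elsewhere. Cortical markers summed to 73.1 to 388 CPM in striatum and 1059 to 1326 CPM in hippocampus, against 1401 to 1746 CPM in prefrontal cortex. Hippocampal markers summed to 256 to 354 CPM in prefrontal cortex and 569 to 912 CPM in striatum, against 1388 to 1911 CPM in hippocampus. Library totals ran from 7640047 to 13928265 counts. In 5 hippocampus libraries (2 WT on the normal diet, 2 WT on the lacking diet and 1 KO on the normal diet) choroid plexus markers summed to 573 to 1542 CPM, beside a hippocampus median of 58.5 CPM. These were the libraries over 10 times the median in CPM without TMM factors, so counts of hippocampus results are also given without them.

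The clearest result was a difference between brain regions in the receptor Tomm70a. It was higher in every striatum library than in any library of the other regions. The gene lies on the plus strand at chr16:57121703-57156705 (GRCm38, as are all positions here). It ranged from 301 to 412 CPM in prefrontal cortex (median 338), from 787 to 1193 CPM in striatum (median 909) and from 297 to 439 CPM in hippocampus (median 351). Prefrontal cortex and hippocampus overlapped. In edgeR's quasi-likelihood test, averaged over the 4 genotype and diet groups, the log2 fold change of prefrontal cortex against striatum was −1.48 (SE 0.0453, adjusted p = 4.87e-37), a 2.78-fold higher level in striatum. Striatum against hippocampus gave 1.41 (SE 0.0452, adjusted p = 4.19e-36), or 2.65-fold, and prefrontal cortex against hippocampus gave −0.07 (SE 0.0446, adjusted p = 0.192). Striatum was higher in 20 of 20 mice against both other regions. Within the 4 groups the prefrontal cortex minus striatum difference in mean log2 CPM ran from −1.37 in WT on the normal diet to −1.60 in KO on the lacking diet.

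Tomm20 followed with the same order of regions at a smaller size. The gene lies on the minus strand at chr8:126930667-126945844. It ranged from 273 to 326 CPM in prefrontal cortex (median 294), from 345 to 459.7 CPM in striatum (median 409.6) and from 264 to 334 CPM in hippocampus (median 297). No striatum library overlapped the others. The log2 fold change was −0.48 (SE 0.0299, adjusted p = 7.05e-22) for prefrontal cortex against striatum and 0.47 (SE 0.0299, adjusted p = 2.48e-21) for striatum against hippocampus, each with 20 of 20 mice in that direction. Tomm22, the third receptor, did not follow: its medians were 39.3, 38.5 and 38.6 CPM in the 3 regions, and its widest log2 fold change was 0.03 (SE 0.0388, adjusted p = 0.502), for prefrontal cortex against striatum.

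Mtx3, an outer-membrane protein of the SAM complex, differed in all 3 pairs. The gene lies on the plus strand at chr13:92844760-92858230. It ranged from 70.0 to 97.8 CPM in prefrontal cortex (median 80.7), from 109.7 to 170.2 CPM in striatum (median 127) and from 91.9 to 132 CPM in hippocampus (median 104). Prefrontal cortex and striatum did not overlap, whereas hippocampus overlapped both. The log2 fold change was −0.66 (SE 0.047, adjusted p = 2.09e-19) for prefrontal cortex against striatum, −0.38 (SE 0.047, adjusted p = 2.57e-10) against hippocampus and 0.28 (SE 0.0466, adjusted p = 3.5e-07) for striatum against hippocampus. The last of these was 0.07 (adjusted p = 0.582) for WT mice on the normal diet alone, a contrast within the same fit. In that group, striatum minus hippocampus in mean log2 CPM was 0.08. It was 0.26 in WT on the lacking diet, 0.42 in KO on the normal diet and 0.37 in KO on the lacking diet.

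Tomm34, a cytosolic partner of heat-shock proteins named for its role in handing over precursors, ran the other way. The gene lies on the minus strand at chr2:164053540-164071169. It ranged from 63.3 to 86.7 CPM in prefrontal cortex (median 72.9), from 54.0 to 81.8 CPM in striatum (median 63.9) and from 78.5 to 100.2 CPM in hippocampus (median 85.5). Hippocampus was highest and striatum lowest, with overlap at the edges. The log2 fold change was −0.45 (SE 0.0378, adjusted p = 2.74e-16) for striatum against hippocampus, with hippocampus higher in 20 of 20 mice.

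**Figure D2:**
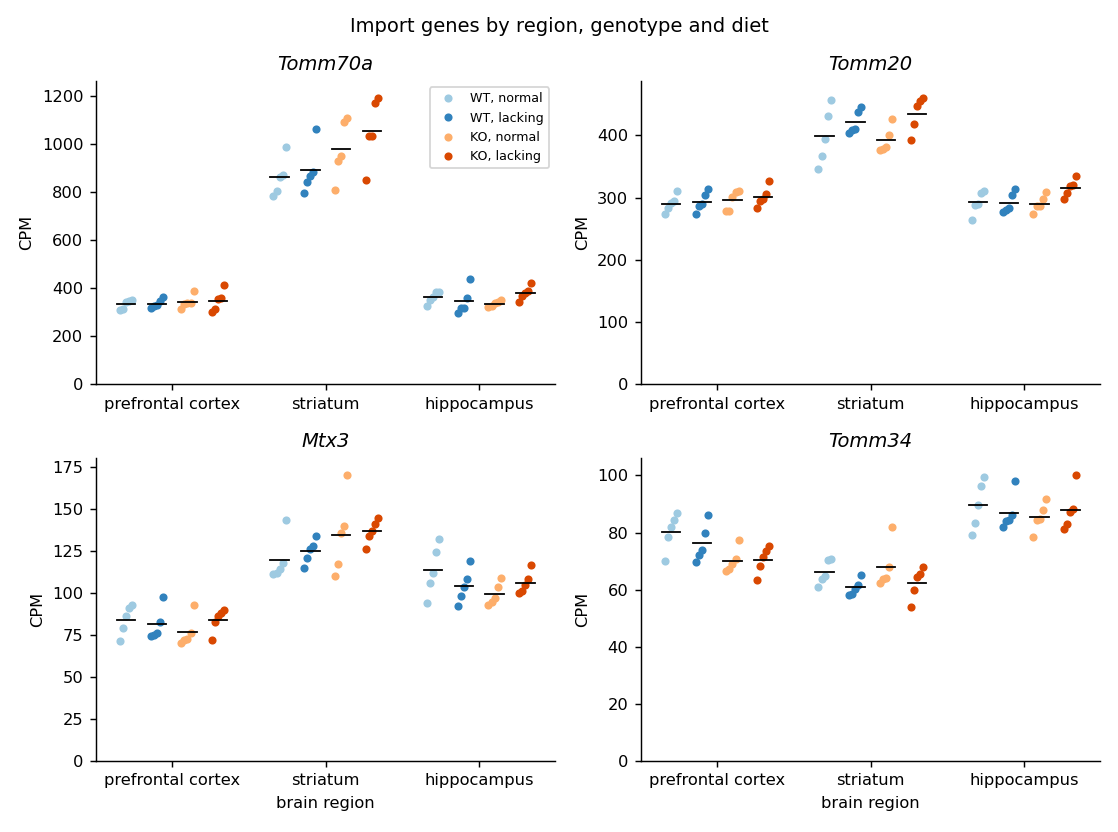
CPM of Tomm70a, Tomm20, Mtx3 and Tomm34 in each library (points), by region and by genotype and diet group (colours), with a line at the mean of 5 mice. The striatum points of Tomm70a and Tomm20 lie above all points of the other regions in every group, and Tomm34 is highest in hippocampus.

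Because Tomm70a is so abundant, it moved the total. The summed CPM of the members was 1363 to 1516 in prefrontal cortex (median 1405), 1955 to 2471 in striatum (median 2148) and 1335 to 1585 in hippocampus (median 1467). Tomm70a alone made up 39.6 to 48.8% of that sum in striatum, 21.8 to 27.2% in prefrontal cortex and 22.2 to 28.0% in hippocampus. Without Tomm70a and Tomm20 the medians were 779, 833 and 815 CPM, and the ranges of the 3 regions overlapped. Oligodendrocyte markers also moved with region: their sum over 5 genes was 5311 to 6930 CPM in striatum, 1554 to 3103 CPM in prefrontal cortex and 3460 to 6202 CPM in hippocampus. The sum over 6 neuronal markers was 6358 to 9170, 9860 to 12984 and 6650 to 8997 CPM in the same order. That over 5 astrocyte markers was 1359 to 1902, 1577 to 2542 and 2251 to 3125 CPM, so that, as for the median of Tomm34, hippocampus was highest and striatum lowest. Their part in the regional values of the members was not tested. In bulk tissue, fewer cells of a type and less RNA per cell cannot be told apart.

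Across the machinery, the share of members that differed between regions was below that of all genes tested in each pair. Between prefrontal cortex and striatum 18 of 30 members passed an adjusted p of 0.05, 7 higher and 11 lower in prefrontal cortex, where 69.9% of the 13930 genes tested passed (34% higher, 35.9% lower). Between prefrontal cortex and hippocampus 9 passed, 4 higher and 5 lower, where 59.3% of genes passed (29.1% higher, 30.2% lower). Between striatum and hippocampus 17 passed, 10 higher and 7 lower in striatum, where 66.4% of genes passed (33.6% higher, 32.9% lower). Other sets of mitochondrial genes were below all genes as well. In the same order of pairs, 43.4, 32.9 and 43.4% of 76 tested mitochondrial ribosomal protein genes passed. Of 45 complex I subunit and assembly factor genes, 40, 24.4 and 35.6% passed, beside 60, 30 and 56.7% of the members. The median log2 fold changes of the members were 0.01, 0.01 and −0.02, against −0.01, −0.01 and 0.01 over all genes tested. Libraries of the compared regions did not overlap for 3 members between prefrontal cortex and striatum (Tomm70a, Tomm20 and Mtx3; 18.2% of genes), for 0 between prefrontal cortex and hippocampus (10.6% of genes) and for 2 between striatum and hippocampus (Tomm70a and Tomm20; 15.7% of genes).

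The split of calls depended on scaling. With library totals in place of TMM factors, the higher share of all calls was 38.6% instead of 49.1% between prefrontal cortex and hippocampus, where the members split into 1 higher and 11 lower. Between striatum and hippocampus it was 38.8% instead of 50.5%, and the members split into 7 higher and 10 lower. Tests on RPKM gave higher shares of 38.8% in both of these pairs. Members that changed sign under library totals (Timm9, Mtx1, Timm23, Timm8b, Tomm22, Pmpca and Tomm6, each in 1 pair) were ones that had not passed the test in that pair.

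Within TOM, counting the cytosolic Tomm34, 5 of 9 tested members passed between prefrontal cortex and striatum, where 69.9% of all genes did. Tomm40, the pore, was higher in prefrontal cortex than in striatum (0.26, SE 0.0681, adjusted p = 0.000689) and than in hippocampus (0.19, SE 0.0677, adjusted p = 0.0135). Tomm40l ranked striatum above prefrontal cortex above hippocampus, with medians of 35.8, 32.5 and 27.0 CPM and a log2 fold change of 0.38 (SE 0.0425, adjusted p = 5.91e-12) for striatum against hippocampus. The small pore subunits Tomm5, Tomm6 and Tomm7 passed in no pair. Mean counts of 12.0 for Tomm5 and 16.9 for Tomm6 limit what could be seen there.

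In SAM, no member was called lower in striatum. Samm50, which inserts barrel proteins, was higher in striatum than in prefrontal cortex (−0.15 for prefrontal cortex against striatum, SE 0.0415, adjusted p = 0.000893) and higher than in hippocampus in 20 of 20 mice (0.23, SE 0.0415, adjusted p = 1.93e-06). The smallest difference from hippocampus within a mouse was only 0.00177 in log2 CPM. All 4 SAM genes passed between striatum and hippocampus with striatum higher, in a pair where 66.4% of all genes passed and 33.6% were higher in striatum, but Mtx1 (0.16, adjusted p = 0.0277) and Mtx2 (0.09, adjusted p = 0.0425) lost the call when the mouse was fitted as a block, with adjusted p = 0.0521 and 0.0576.

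Among the intermembrane-space chaperones and TIM22, Timm22, the carrier translocase itself, passed in all 3 pairs, although prefrontal cortex minus striatum was 0.11 in mean log2 CPM in KO on the normal diet and −0.40, −0.38 and −0.22 in the other groups. Its medians were 9.95 CPM in prefrontal cortex, 11.7 CPM in striatum and 8.43 CPM in hippocampus, with 0.48 (SE 0.0806, adjusted p = 5.66e-07) for striatum against hippocampus. Timm10, which carries hydrophobic precursors as a ring with Timm9, had the opposite order for that pair (−0.36, SE 0.0821, adjusted p = 0.000114), as did Timm10b (−0.22, SE 0.0582, adjusted p = 0.000665). Timm9 itself passed in no pair, and its widest log2 fold change was −0.07 (SE 0.0675, adjusted p = 0.402) for prefrontal cortex against hippocampus. Timm8b and Timm13 passed in none either.

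In TIM23, the channel gene Timm23 passed in no pair, and 52.1% of its 75-base stretches also occur in other annotated genes. Timm21, which links the translocase to respiratory chain assembly, was lower in prefrontal cortex than in striatum in 20 of 20 mice (−0.47, SE 0.086, adjusted p = 2.9e-06) and lower than in hippocampus (−0.30, SE 0.0865, adjusted p = 0.00241). The alternative partners of the channel ran in opposite directions between prefrontal cortex and striatum: Timm17a was higher in striatum (−0.12, SE 0.0309, adjusted p = 0.000506) and Timm17b higher in prefrontal cortex (0.33, SE 0.092, adjusted p = 0.00146). In WT mice on the normal diet alone neither passed, with −0.06 (adjusted p = 0.455) for Timm17a and 0.29 (adjusted p = 0.213) for Timm17b. The difference between these paralogs was not itself tested. Timm50, the receptor of the channel, was higher in prefrontal cortex than in striatum (0.28, SE 0.0773, adjusted p = 0.00117).

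In the motor, Timm44, which anchors the mitochondrial heat-shock protein at the channel, was higher in striatum than in prefrontal cortex (−0.26, SE 0.0498, adjusted p = 7.07e-06) and than in hippocampus (0.20, SE 0.0497, adjusted p = 0.000499). The exchange factors Grpel1 (−0.20, SE 0.0551, adjusted p = 0.00103) and Grpel2 (−0.23, SE 0.0575, adjusted p = 0.000327) were lower in striatum than in hippocampus. Pam16 passed in no pair. Of the peptidase subunits, Pmpcb was lower in prefrontal cortex than in hippocampus (−0.17, SE 0.0378, adjusted p = 0.000104) while Pmpca was higher (0.10, SE 0.0309, adjusted p = 0.00486), a value that was 0.04 (adjusted p = 0.356) with library totals.

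Several of the smallest calls were lost when 1 mouse was left out, in some cases whichever of many mice it was. Leaving out any 1 of 11 mice (225, 226, 242, 268, 273, 283, 325, 339, 368, 381 or 452) ended the call of Mtx2 between striatum and hippocampus, with adjusted p from 0.0549 to 0.176, and 5 mice (259, 267, 283, 286 or 339) did so for Mtx1, with 0.0521 to 0.131. Grpel1 between prefrontal cortex and striatum (0.13, adjusted p = 0.0368) lost its call without any 1 of 8 mice (226, 242, 244, 246, 259, 268, 283 or 368; 0.0505 to 0.0975). Grpel2 between prefrontal cortex and hippocampus (−0.15, adjusted p = 0.0192) lost it without 226, 268 or 339 (0.0525 to 0.0637). For striatum against hippocampus, Timm50 (−0.20, adjusted p = 0.0228) lost it without 244, 246 or 273 (0.0598 to 0.0723), and Timm17a (0.08, adjusted p = 0.0142) without 381 (0.0714). Without the 5 hippocampus libraries rich in choroid plexus markers, 8 members passed between prefrontal cortex and hippocampus and 14 between striatum and hippocampus. Over all 14063 genes tested there, 8182 and 8957 passed, in place of 8260 and 9256 of 13930. The members lost were Grpel2 in the first pair, and Timm17a, Timm50 and Mtx2 in the second. With library totals in place of TMM factors, Timm22 and Tomm40 as well as Pmpca lost their calls between prefrontal cortex and hippocampus, as did Timm17a, Mtx1 and Mtx2 between striatum and hippocampus. With the RNA integrity number as a covariate, Timm22 (adjusted p = 0.0725) and Tomm40 (0.116) lost theirs in the first of these pairs and Mtx1 (0.1) in the second. In WT mice on the normal diet alone, Timm50 was at 0.04 (adjusted p = 0.845), Timm44 at −0.09 (0.467) and Timm17a at −0.06 (0.455) between prefrontal cortex and striatum. Timm44 was 0.05 (0.76) and Mtx2 0.03 (0.786) between striatum and hippocampus there.

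**Figure D3:**
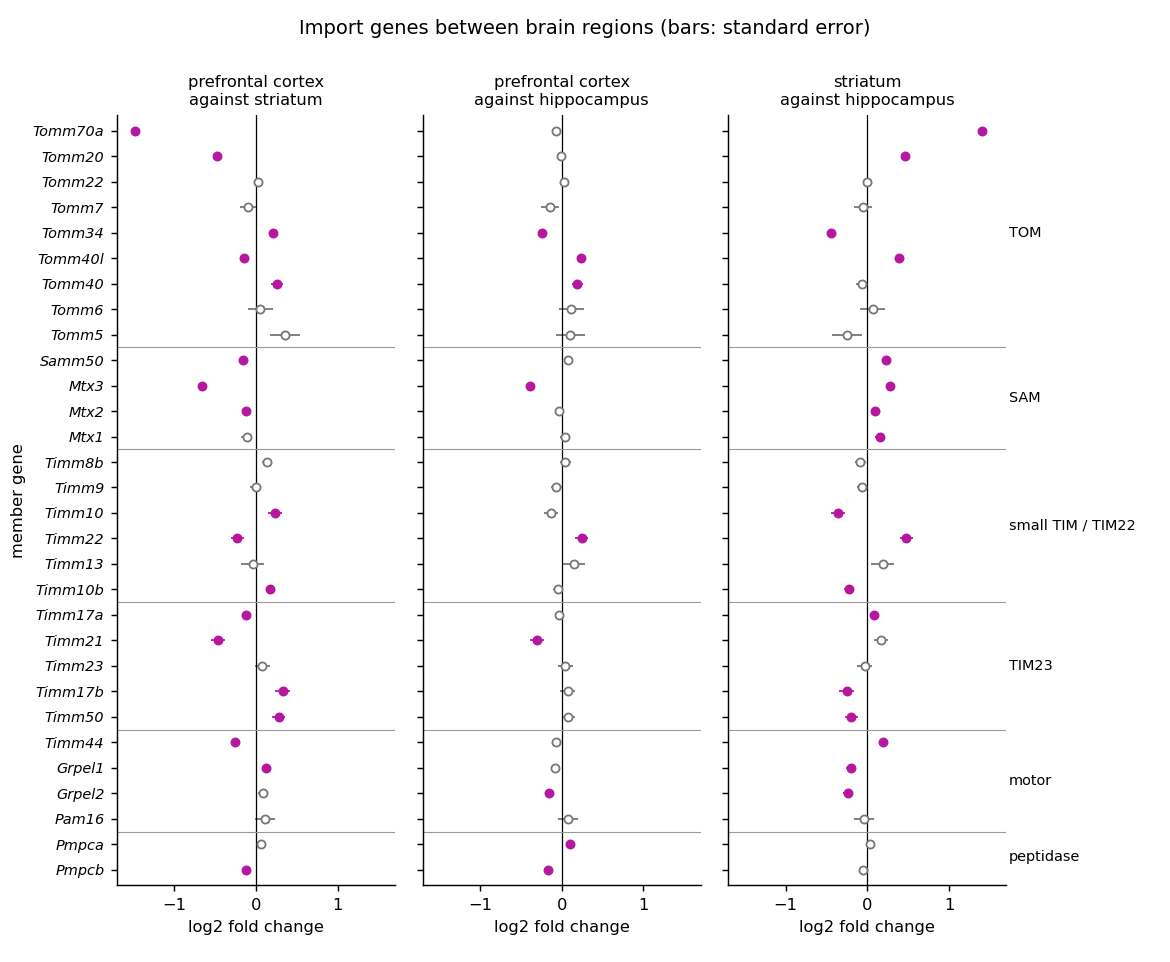
Log2 fold changes of the 30 tested members for the 3 pairs of regions, with bars of 1 standard error from edgeR; filled points passed an adjusted p of 0.05. Tomm70a is the far point at −1.48 and 1.41, and it sits near 0 between prefrontal cortex and hippocampus.

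By genotype and diet, no member passed edgeR's quasi-likelihood test in any of the 15 comparisons, and DESeq2 called 1 member in each of 2 of them. These were KO against WT over both diets, lacking against normal diet in WT and in KO, VB6-deprived KO mice set against normally fed WT mice (KO lacking against WT normal), and the interaction between the factors, each in 3 regions. Of the 450 log2 fold changes of members, 397 (88.2%) lay within 0.25 of 0. The widest values belonged to the thinly counted Tomm5, from −0.98 to 0.78 in the comparisons where it was the most extreme member. Two-sided unadjusted p-values under 0.05 are counted below beside the share of all genes with one. They are not calls.

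In prefrontal cortex, KO against WT gave 0 members past the adjusted threshold (0.673% of 13223 genes) and 6 under an unadjusted 0.05 (14.1% of genes). The corresponding counts were 0 (0%) and 0 (2.27%) for the diet in WT, 0 (0%) and 2 (5.19%) for the diet in KO, 0 (0.28%) and 7 (13%) for KO lacking against WT normal, and 0 (0%) and 0 (3.17%) for the interaction. DESeq2 called 1 member for KO against WT and 1 for KO lacking against WT normal, and limma on log2(RPKM + 1) called 0 in all of them. The shares above are those of edgeR. The shares of all genes that DESeq2 called are not given here, so its calls have no background beside them.

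Timm17a had the smallest p for KO against WT in prefrontal cortex. Its CPM values were 119.5, 119.5, 120.2, 121 and 129 in WT on the normal diet and 117, 117, 121, 124 and 124 in WT on the lacking diet. In KO mice they were 105, 107, 108, 116 and 120.1 on the normal diet and 104, 104, 106, 114 and 118 on the lacking diet. Of the 10 KO values, 8 lay below all WT values and 2 overlapped them. The log2 fold change was −0.15 (SE 0.0425, adjusted p = 0.0981 by edgeR and 0.0313 by DESeq2), and the adjusted p ran from 0.0313 to 0.166 over 6 other settings.

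Tomm7, which regulates the stability of the TOM complex, had the smallest p for KO lacking against WT normal. Its values were 28.9, 29.1, 31.2, 35.6 and 44.4 CPM in WT on the normal diet and 24.0, 26.3, 30.7, 36.8 and 38.8 CPM in WT on the lacking diet. They were 25.5, 28.3, 29.97, 31.0 and 40.7 CPM in KO on the normal diet and 17.1, 20, 22.5, 27.0 and 28.9 CPM in KO on the lacking diet. This last group was the lowest, and its highest mouse lay just under the lowest WT mouse on the normal diet. Between these groups the log2 fold change was −0.56 (SE 0.153, adjusted p = 0.102 by edgeR and 0.0424 by DESeq2), with adjusted p from 0.0424 to 0.156 over 7 other settings. The diet in KO gave −0.43 for Tomm7 (SE 0.152, adjusted p = 0.911). The mean RNA integrity number was 8.54 in KO on the lacking diet and 8.26 in WT on the normal diet. With that number as a covariate the difference was −0.57 (adjusted p = 0.0697).

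Samm50 had the smallest p for the interaction in prefrontal cortex. Its values were 27.1, 28.5, 28.9, 31.3 and 32.3 CPM in WT on the normal diet, 24.4, 27.7, 29.3, 31.4 and 33.7 CPM in WT on the lacking diet, and 29.2, 29.9, 31.7, 31.8 and 34.0 CPM in KO on the normal diet. In KO on the lacking diet they were 33.3, 34.6, 34.6, 35.2 and 43.1 CPM. That group lay above WT on the normal diet without overlap, and the interaction was 0.22 (SE 0.131, adjusted p = 1). For the diet in WT the smallest p belonged to Tomm6, with 1.48, 1.72, 2.36, 2.53 and 3.20 CPM on the normal diet and 1.27, 1.27, 1.57, 1.72 and 1.92 CPM on the lacking diet. These groups overlapped (−0.53, SE 0.29, adjusted p = 1).

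In striatum, KO against WT gave 0 members past the adjusted threshold (0.203% of 13311 genes) and 3 under an unadjusted 0.05 (5.78%). The counts were 0 (0%) and 1 (2.91%) for the diet in WT, 0 (0%) and 0 (1.68%) for the diet in KO, 0 (0.0826%) and 2 (5.06%) for KO lacking against WT normal, and 0 (0%) and 1 (1.7%) for the interaction. DESeq2 and limma called 0 members in these 5.

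Tomm70a, the receptor that marked the striatum, also had the smallest p there for KO against WT. Its values were 787, 804, 862, 874 and 991 CPM in WT on the normal diet and 799, 843, 867, 886 and 1066 CPM in WT on the lacking diet. They were 810.1, 931, 952, 1095 and 1111 CPM in KO on the normal diet and 853, 1034, 1035, 1174 and 1193 CPM in KO on the lacking diet. The group means were 864, 892, 980.0 and 1058 CPM in that order, and the groups overlapped throughout. The log2 fold change was 0.21 for KO against WT (SE 0.069, adjusted p = 0.74) and 0.29 for KO lacking against WT normal (SE 0.0976, adjusted p = 0.914). Both are a small part of the 1.48 that separated striatum from prefrontal cortex.

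Mtx1 had the smallest p in striatum for the diet in WT and for the interaction. Its values were 9.15, 9.52, 10.8, 11.2 and 11.9 CPM in WT on the normal diet and 11.5, 13.0, 13.6, 13.8 and 14.5 CPM in WT on the lacking diet, with overlap in 1 mouse of each group. In KO they were 9.31, 10.1, 11.3, 14.1 and 16.2 CPM on the normal diet and 8.59, 8.92, 10.98, 11.4 and 12.4 CPM on the lacking diet. The diet difference in WT was 0.34 (SE 0.142, adjusted p = 1) and the interaction −0.57 (SE 0.203, adjusted p = 1). Tomm20 had the smallest p for the diet in KO, with 377, 377, 381, 401 and 426 CPM on the normal diet and 393, 417, 447, 455 and 459.7 CPM on the lacking diet. These overlapped as well (0.14, SE 0.0723, adjusted p = 1).

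In hippocampus, KO against WT gave 0 members past the adjusted threshold (0.164% of 13393 genes) and 0 under an unadjusted 0.05 (4.24%). The counts were 0 (0%) and 1 (4.03%) for the diet in WT, 0 (0%) and 1 (6.56%) for the diet in KO, 0 (0.0149%) and 0 (3.62%) for KO lacking against WT normal, and 0 (0%) and 2 (9.45%) for the interaction. DESeq2 and limma called 0 members here, and so did edgeR without the 5 libraries rich in choroid plexus markers.

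Mtx2, a metaxin that works beside Samm50, had the smallest p in hippocampus for the diet in WT and for the interaction. Its values were 35.3, 37.5, 37.5, 38.1 and 41.6 CPM in WT on the normal diet and 31.5, 31.9, 32.5, 32.9 and 35.1 CPM in WT on the lacking diet. In KO they were 32.8, 32.8, 33.1, 34.5 and 36.9 CPM on the normal diet and 35.8, 36.1, 38.4, 38.6 and 39.1 CPM on the lacking diet. The WT groups did not overlap, with the lacking diet lower, and the KO groups overlapped, with the lacking diet mostly higher. Mtx2 was picked by its p, and the share of all genes without overlap is not given. The diet difference in WT was −0.22 (SE 0.0705, adjusted p = 0.965) and the interaction 0.35 (SE 0.0996, adjusted p = 0.514). The interaction was 0.35 (adjusted p = 0.218) without the libraries rich in choroid plexus markers, and its adjusted p ran from 0.218 to 0.611 over 7 other settings.

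The remaining hippocampus comparisons were led by members with overlapping groups. Tomm40 gave 0.17 for KO against WT (SE 0.0847, adjusted p = 1), with values of 10.9, 13.0, 13.3, 13.4 and 13.8 CPM in WT on the normal diet and 11.2, 13.6, 14.1, 14.6 and 17.8 CPM in WT on the lacking diet. In KO it had 13.6, 14.7, 15.7, 17.4 and 17.5 CPM on the normal diet and 12.6, 13.5, 15.6, 16 and 16.2 CPM on the lacking diet. Grpel2 gave −0.22 for the diet in KO (SE 0.106, adjusted p = 0.719), with 17.9, 18.8, 19.4, 20.7 and 22.7 CPM on the normal diet and 14.4, 15.6, 18.6, 18.7 and 18.7 CPM on the lacking diet. Grpel1 gave 0.21 for KO lacking against WT normal (SE 0.115, adjusted p = 1), with 19.1, 20.5, 21.1, 22.4 and 23.4 CPM against 13.2, 18.6, 18.8, 19.0 and 21.4 CPM.

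**Figure D4:**
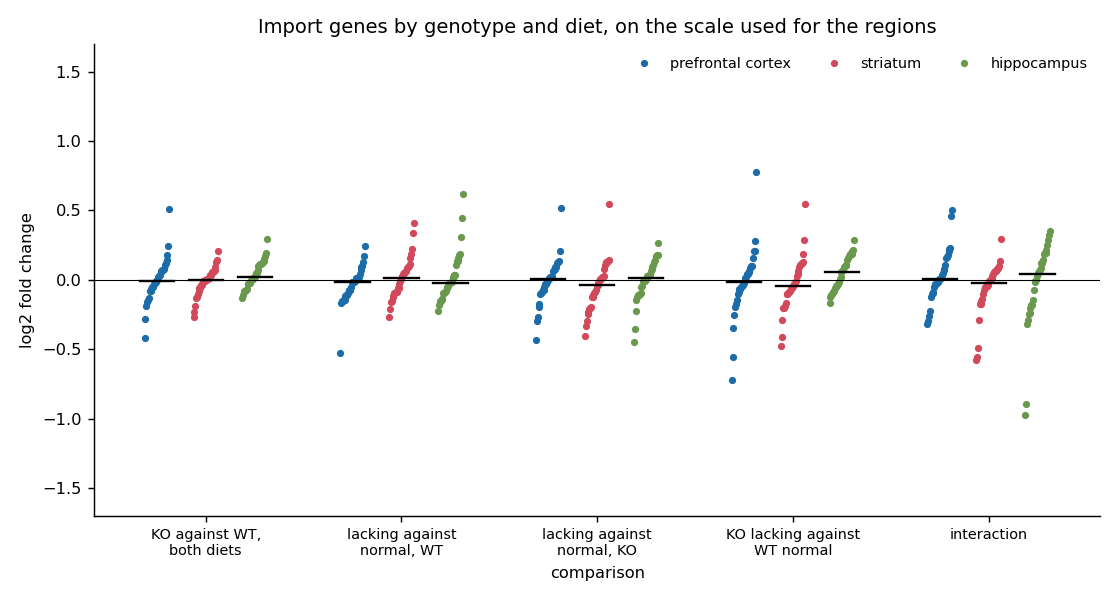
Log2 fold changes of the 30 tested members in the 15 comparisons of genotype and diet (1 point per member, colours for regions, line at the median), drawn on the axis used for the brain regions. The medians lie near 0 and no point passed the adjusted threshold in edgeR, while DESeq2 called Timm17a and Tomm7 in prefrontal cortex; the lowest point, −0.98, is Tomm5 in the hippocampus interaction.

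**Figure D5:**
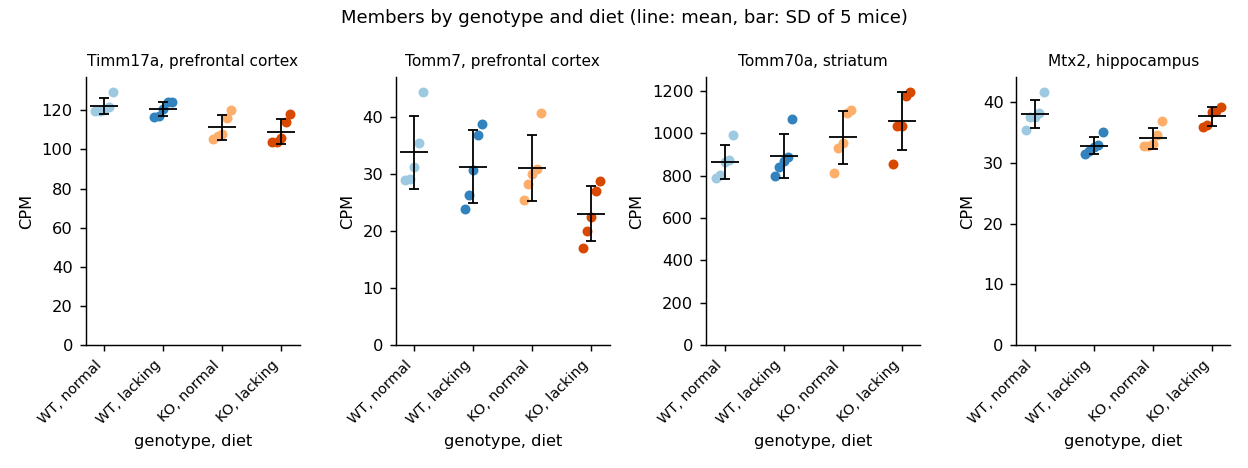
CPM of Timm17a and Tomm7 in prefrontal cortex, Tomm70a in striatum and Mtx2 in hippocampus, with 5 mice per group as points, a line at the mean and bars of 1 SD. For Timm17a and Tomm7, KO on the lacking diet lies below WT on the normal diet without overlap. The Tomm70a groups overlap, and the WT groups of Mtx2 do not. These members were picked by their p, and the share of all genes without overlap is not given.

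Regions were also compared for how KO on the lacking diet differed from WT on the normal diet. No member passed for prefrontal cortex against striatum (0% of 13930 genes; 1 member and 3.27% of genes under an unadjusted 0.05), for prefrontal cortex against hippocampus (0%; 4 members and 7.32%) or for striatum against hippocampus (0%; 3 members and 3.91%). Samm50 had the smallest p in both pairs with prefrontal cortex, at 0.25 (SE 0.117, adjusted p = 0.957) and 0.32 (SE 0.118, adjusted p = 0.629). Timm50 had it in the third, at −0.57 (SE 0.221, adjusted p = 0.975). Fits by DESeq2 called 0 members in these 3.

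The members are only part of the route, and 19 further import genes were read beside them: the motor's heat-shock protein and its partners, the disulfide relay, other peptidases, insertases and the matrix chaperonin. All 19 were tested; the examples given were picked after their values had been seen. Between prefrontal cortex and striatum 9 passed, 1 higher and 8 lower in prefrontal cortex. Hspa9, the heat-shock protein that pulls precursors in, was lower there than in striatum (−0.18, SE 0.0258, adjusted p = 6.4e-09), as were the folding chaperonin genes Hspd1 (−0.24, SE 0.0471, adjusted p = 7.65e-06) and Hspe1 (−0.45, SE 0.0789, adjusted p = 8.72e-07). Dnajc19 and Dnajc15, alternative partners of that heat-shock protein, moved apart, at −0.24 and 0.26 (adjusted p = 1.5e-05 and 1.52e-05). In WT mice on the normal diet alone, Dnajc15 (0.19, adjusted p = 0.139) and Hspd1 (−0.16, adjusted p = 0.161) lost their calls. Between prefrontal cortex and hippocampus 8 of 19 passed, 1 higher and 7 lower. Between striatum and hippocampus 10 passed, 7 higher and 3 lower. As shares of the list these are 47.4, 42.1 and 52.6%, beside 60, 30 and 56.7% of the tested members and 69.9, 59.3 and 66.4% of all genes tested, which all exceed them.

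By genotype and diet, 1 of the 19 passed in 1 of the 15 comparisons, where 0.28% of 13223 genes passed. Romo1, a small protein of the inner membrane linked to the TIM23 channel, was lower in prefrontal cortex of KO mice on the lacking diet than of WT mice on the normal diet (−0.94, SE 0.205, adjusted p = 0.0371). Its values were 17.9, 19.0, 23.8, 24.7 and 31.9 CPM in WT on the normal diet and 10.2, 11.3, 11.3, 13.2 and 15.5 CPM in KO on the lacking diet, with no overlap. The share of all genes without overlap between these groups is not given. In KO on the normal diet it had 13.2, 14.3, 15.98, 24.9 and 28.0 CPM, and in WT on the lacking diet 13.8, 18.9, 19.0, 25.4 and 29.3 CPM. KO against WT over both diets gave −0.54 in the same region (SE 0.143, adjusted p = 0.0715), and genotype and batch cannot be told apart here. The call of Romo1 ended without any 1 of 7 of the 10 mice compared (242, 272, 286, 317, 325, 339 or 452), with adjusted p from 0.0711 to 0.13. With limma it was −0.86 (adjusted p = 0.0851). Romo1 did not pass in the other regions. Its mean in KO on the lacking diet was 16.8 CPM in striatum, against 22.1 CPM in WT on the normal diet. In hippocampus the order was reversed, with 24.4 CPM against 22.0 CPM.

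Members differed in how tightly mice of 1 group agreed. The standard deviation of log2 CPM within groups was smallest for Timm17a (0.0876), Tomm20 (0.0879) and Pmpca (0.0891), against a median of 0.206 over all genes tested. It was largest for Tomm5 (0.497), Timm13 (0.495), Tomm6 (0.433) and Pam16 (0.373), whose mean counts were 12.0, 32.6, 16.9 and 30.2. Tomm7 was wide for its depth, at 0.359 with a mean of 335 counts, while Samm50 had 0.123 at 348 counts.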

How the data were processed

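Messenger RNA was selected on poly(A) beads from 2 µg of total RNA and sequenced as 75-base single reads, per the labels' protocols. The authors deposited raw read counts per gene and RPKM values made from the same counts. STAR 2.7.1a, HTSeq 0.9.1 and mm10 are named in the submitters' processing notes; the gene annotation and the use of strand are not given in the sources used here, so overlapping and antisense genes cannot be told apart. Totals of 7640047 to 13928265 counts per library limit precision for members with few counts.

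Counts were tested with edgeR 4.0.16 (R 4.3.3): genes kept by filterByExpr (minimum count 10, minimum total 15), TMM factors, quasi-likelihood F-tests, p-values adjusted by Benjamini-Hochberg over all genes tested, threshold 0.05. Each region had its own fit of 20 libraries; regions were compared in a fit of all 60. A standard error is the log2 fold change divided by the root of F. RPKM served to compare levels between genes. Alternatives were DESeq2 1.42.0, limma 3.58.1 on log2(RPKM + 1), other filters and scalings, the RNA integrity number as a covariate, the mouse as a block, fewer groups, each mouse left out, and, chosen after seeing the data, 5 hippocampus libraries left out. The fits were tested on simulated counts that gave all genes the same spread beyond counting noise and held no effect of the mouse. The changes planted there were larger than most of those called here, so that test does not cover small changes.

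The 3 regions of a mouse share an animal. The deviations of such libraries from their group means had a mean correlation of 0.0531 over 60 pairs. Pairs of different mice of a group had −0.0122 over 240 pairs. Deviations within a group cancel out, so the value for different mice is tied to that for the same mouse. It is no independent baseline. Within a region each mouse is 1 replicate. The main fit that compared regions had no term for the mouse, so its standard errors and p-values take the 60 libraries as separate.

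The members and lists were chosen with earlier results of these data known. The text names, in each comparison of genotype and diet, the members called or else the 1 with the smallest p; between regions, called members without overlap and those with the largest changes; and the paralog pairs. Positions come from GENCODE vM21 and RefSeq GRCm38.p6, in which all 33 symbols were matched.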

Additional observations from a re-analysis of the deposited data

Results flagged for a closer look

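Among 47 groups of 5 mice examined for a single mouse far from the rest, 5 had one, where chance gives about 1 in 20 groups (2.35 of 47). The mean log2 CPM of the members was 4.44 in striatum of mouse 241, a WT mouse on the lacking diet, where the nearest mouse of its group had 4.33. It was 4.38 in hippocampus of mouse 339, a KO mouse on the lacking diet, where the nearest had 4.27. In prefrontal cortex, the same mouse 339 had 43.1 CPM of Samm50 beside 35.2 in the nearest. Mouse 286, WT on the normal diet, had 129 CPM of Timm17a in prefrontal cortex beside 121. Mouse 317, of the same group, had 10.9 CPM of Tomm40 in hippocampus beside 13.0.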

How the results depend on the processing

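DESeq2 called 1 member in prefrontal cortex for KO against WT and 1 for deprived KO against normally fed WT mice, where edgeR called 0. The cause was not tested, and the shares of all genes that DESeq2 called there are not given. In the 13 other comparisons of genotype and diet, every setting run gave 0. For WT mice on the normal diet alone, a contrast of 5 mice per region was taken in the fit of all 60 libraries. It gave 7, 4 and 7 members between the regions in place of 18, 9 and 17. Of all genes, 6391, 5010 and 5861 passed in place of 9743, 8260 and 9256. Timm50 turned to 0.14 between striatum and hippocampus in that contrast. Leaving out each mouse in turn gave 17 to 21, 8 to 9 and 15 to 17 members between regions and 0 elsewhere. Counts of all genes in those refits are not given here. With the mouse as a replicate block 20, 9 and 15 members passed between the regions, and 9796, 8340 and 9296 of all genes. The block ended no other call than those of Mtx1 and Mtx2 between striatum and hippocampus. The differences between regions by genotype and diet stayed at 0. Depth limits Tomm5, Tomm6, Pam16 and Timm13, with mean counts of 12.0, 16.9, 30.2 and 32.6.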
